A study of Mus musculus with 2 samples.

Results

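The genes followed here are 9 that carry iron into cells, store it, release it or sense it, of 32285 genes in the counts: Tfrc, Slc11a2, Steap3, Slc25a37, Fth1, Ftl1, Slc40a1, Hmox1 and Ireb2. They were chosen by name, with earlier results of these data known, and all 9 had UMIs in the cells kept. UMIs are unique molecular identifiers, 1 per captured RNA molecule in each deposited matrix. The cells were live Lin-CD45- cells from digested femurs and tibiae of 3 untreated male INK-ATTAC mice aged 24 months, depleted of blood lineage cells (Ter-119+ erythroid cells among them) after red cell lysis. INK-ATTAC mice carry a caspase 8 cassette under the p16 promoter, which kills cells only after AP20187, a drug these mice did not receive. The mice were pooled into 1 sample for 10x Chromium 3′ single-cell RNA-seq, with no young, treated or wild-type group, so no value below has an animal replicate and no p-value is given. Levels are CPM, the UMIs of a gene scaled to 1000000 UMIs of a class of cells, and their 95% intervals cover counting error only.

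Maturing red cells take up more iron than other cells in order to make heme. Iron bound to transferrin enters through the transferrin receptor, is reduced and leaves the endosome, and is then carried into mitochondria for heme synthesis, while surplus iron is held in ferritin or leaves through ferroportin. In iron-poor cells, iron regulatory proteins bind hairpins called iron-responsive elements: a hairpin in the 5′ UTR holds back translation, and hairpins in the 3′ UTR of the transferrin receptor protect the mRNA from decay.

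These hairpins are shown because they tie the storage, export and uptake genes to 1 system of control that acts on mRNA translation or decay, of which RNA counts can show the level only. A hairpin was searched for on the sense strand of coding transcripts (GENCODE M21, GRCm38), as a bulged C, 5 paired bases with G-T pairs allowed, the loop CAGTGN or CAGAGN without G in the last place, and 5 bases pairing back. It was found in 4 of the 9 members, in 1 of 54 other iron genes and in 482 of 21901 protein-coding genes (2.20%). A match is a description of letters and not a bound site. A gene without a match may still carry an element that departs from this strict pattern. The loop is in capitals, with T for U.
Fth1 5′ UTR, chr19:9982732-9982761, plus strand: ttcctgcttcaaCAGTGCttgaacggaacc
Ftl1 5′ UTR, chr7:45459778-45459807, minus strand: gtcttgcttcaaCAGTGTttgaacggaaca
Slc40a1 5′ UTR, chr1:45925464-45925493, minus strand: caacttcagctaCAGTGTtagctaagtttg
Tfrc 3′ UTR, chr16:32631160-32631189, plus strand: atttatcagtgaCAGAGTtcactataaata
Tfrc 3′ UTR, chr16:32631219-32631248, plus strand: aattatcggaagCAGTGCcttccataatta
Tfrc 3′ UTR, chr16:32631598-32631627, plus strand: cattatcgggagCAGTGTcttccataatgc
Tfrc 3′ UTR, chr16:32631663-32631692, plus strand: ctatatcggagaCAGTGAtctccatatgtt
Tfrc 3′ UTR, chr16:32631710-32631739, plus strand: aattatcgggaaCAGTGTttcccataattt
Each lay within 1 exon. The hairpin was in 4 of 5 coding transcripts of Fth1, 1 of 2 of Ftl1 and 1 of 4 of Slc40a1, while the 5 of Tfrc were in 1 of 3, and 3′ counts cannot tell such transcripts apart.

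The sample was deposited as replicates 1 and 2 of the same group, and no label says how these came about. They held the same barcodes, 10928 of 11056, so they are called lanes here, were summed per barcode and stand for 1 sample. Squared lane differences over summed counts were 0.559, below the 1 that independent counts would give. The lanes are thus not independent repeats, and a molecule read in both would be counted in each. Of the 11056 barcodes 9573 had at least 200 genes and at most 20% mitochondrial UMIs. Clusters were made without the members and without globin genes, and the 6382 cells of clusters named from erythroid markers were split by the share of their UMIs from alpha- and beta-globin genes. The earliest stage, under 0.5% globin, had 1916 cells. Stages of 0.5 to 1%, 1 to 2.5%, 2.5 to 6% and 6% or more had 787, 1620, 1491 and 568 cells. Against them stood 1877 LEPR stromal cells (at least 1 Lepr UMI and 5000 CPM of Cxcl12), 144 fibroblast-like, 63 endothelial-like and 145 megakaryocyte-like cells. The erythroid markers, which also named the clusters, summed to 8875 CPM in erythroid-like cells and to 710, 1954, 4237 and 2159 CPM in the LEPR stromal, fibroblast-like, endothelial-like and megakaryocyte-like cells, and 13 or 14 of the 14 were over 10 CPM in each class. In the erythroid-like cells, of 12 macrophage markers 6 had a UMI and 0 were over 10 CPM, with Adgre1 at 0. Megakaryocyte-like cells, with 27742 CPM of megakaryocyte markers, also had 6 of 6 neutrophil markers over 10 CPM (3173 CPM summed). They had 3 of 4 B cell markers over 10 CPM (282 CPM) and 2 of 5 mast cell or basophil markers (73.7 CPM). Alas2, the erythroid enzyme that starts heme synthesis, went from 12.4 to 261 CPM between the first stage and the last. Median UMIs per cell were 10398.5 and 11024 in the first 2 stages, 34045 to 42102 in the later 3, and 5188 in LEPR stromal cells. Depth thus differed between the classes, and its part in the levels was not tested beyond thinning cells to 2000 UMIs.

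Tfrc (chr16:32608920-32632794, GRCm38 as are the positions that follow), the transferrin receptor, was the member of the uptake step with the largest difference between erythroid-like and stromal cells. It stood at 767 CPM (762 in lane 1, 772 in lane 2) in the earliest stage and at 1174 (1176 and 1173) in the last. The stages between were at 911, 879 and 944 CPM, so the level dipped once on the way up. In LEPR stromal cells it was at 67.3 CPM (70.4 and 64.2), and the fibroblast-like, endothelial-like and megakaryocyte-like cells had 258, 304 and 261 CPM, with intervals that overlap each other. Over all erythroid-like cells Tfrc was 13.4-fold above LEPR stromal cells (95% interval 12.1 to 14.9), a log2 ratio of 3.75. That ratio was 4.51, and Tfrc in LEPR stromal cells 39.6 CPM, where cells of the other classes rich in erythroid RNA were left out, an alternative chosen after seeing the data. The cells that remained still held erythroid RNA, as given further on. Cells of at least 2000 UMIs were also thinned to that number, with shallower cells left out. This kept 1869 of 1916 cells in the earliest stage, 566 of 568 in the last and 1751 of 1877 LEPR stromal cells. Of the thinned cells, 51.5% in the earliest stage and 77.9% in the last had a Tfrc UMI, against 8.17% of LEPR stromal cells. Unthinned and over all cells, these shares were 79.1%, 97.4% and 17.8%.

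**Figure D1:**
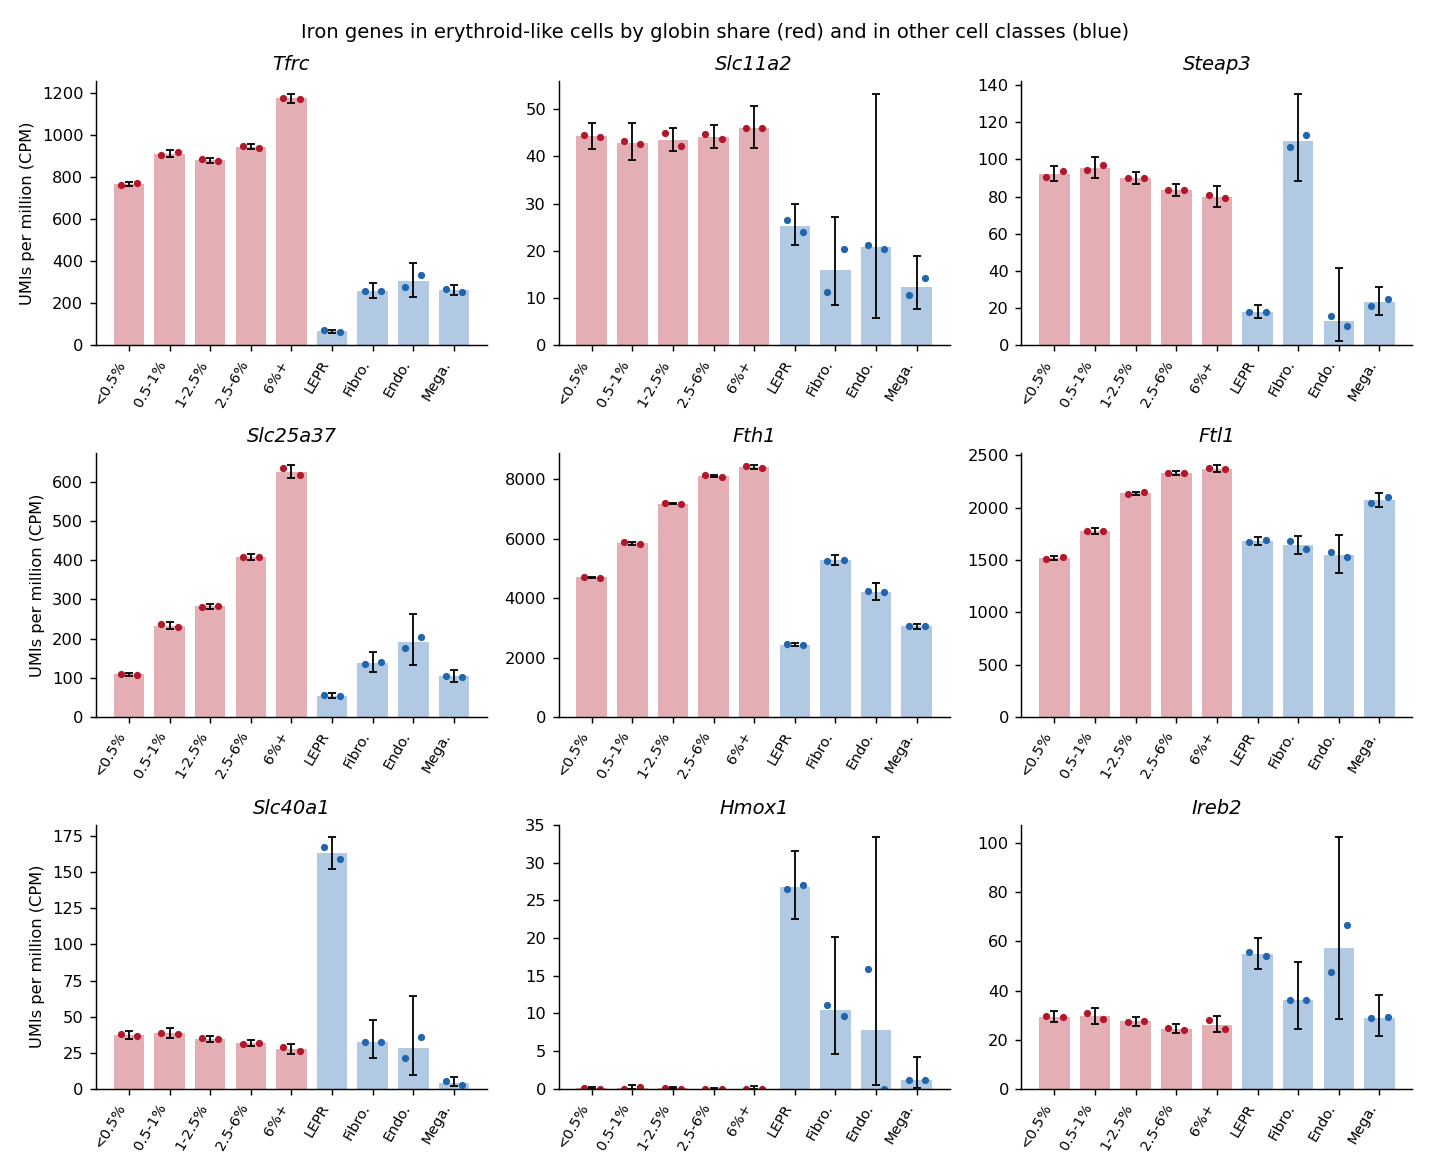
Levels of the 9 iron genes in CPM (linear axes from 0) in the 5 globin stages of erythroid-like cells and in LEPR stromal, fibroblast-like, endothelial-like and megakaryocyte-like cells; bars are summed lanes, points are lane 1 and lane 2, and lines are 95% counting intervals. Slc25a37 and both ferritin genes climb across the red bars, and Slc40a1 and Hmox1 are highest in LEPR stromal cells.

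Slc11a2 (chr15:100387898-100425072) and Steap3 (chr1:120190757-120272705) act in the endosome, the former (DMT1) as the transporter that lets iron out and the latter as the reductase that prepares it. Slc11a2 was nearly flat over the stages, between 42.9 and 46.1 CPM with overlapping intervals. It was lower in LEPR stromal cells, at 25.2 CPM (26.5 and 24.0), a 1.75-fold difference (1.47 to 2.09). The remaining 3 classes had 8 to 43 Slc11a2 UMIs each and levels of 12.4 to 20.8 CPM, of which erythroid RNA in the amount given further on would make 61.9 to 83.1%. Steap3 went from 92.3 CPM in the earliest stage to 80.0 in the last, with a peak of 95.4 at 0.5 to 1% globin. Erythroid-like cells were 4.92-fold (4.03 to 6.08) above LEPR stromal cells, which had 17.8 and 18.1 CPM in the lanes. Fibroblast-like cells had 110 CPM of Steap3 (107 and 113, interval 88.6 to 135), which overlaps the first 3 stages and lies above the last 2, and 45.6% of their 180 UMIs came from 10 cells. Without cells rich in erythroid RNA they were at 122 CPM (95.4 to 153). Fibroblast-like cells, with 19733 CPM of fibroblast markers, also had 6 of 6 osteoblast markers over 10 CPM (7097 CPM summed). Of pericyte markers 4 of 5 (693 CPM) and of chondrocyte markers 3 of 4 (423 CPM) were over 10 CPM there. The part of other cell types in their Steap3 was not tested.

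Slc25a37 (chr14:69241848-69285112), which encodes mitoferrin-1 of the inner mitochondrial membrane, was the member that changed most over the stages. Its level was 109 CPM in the earliest stage (110 in lane 1, 108 in lane 2), then 233, 282 and 407, and 625 in the last (634 and 617). No 2 of these stages had overlapping intervals, and the last was 5.75-fold above the first (5.49 to 6.03), a log2 ratio of 2.52. That interval covers counting error only, and over the alternatives the log2 ratio ran from 1.58, with cells thinned to 2000 UMIs, to 3.54, with each cell's own CPM averaged and clusters 0 and 3, described further on, left out. Finer bins of the same cells by globin share ran from 28.3 CPM in the bin with least globin to 657 in the bin with most. LEPR stromal cells had 54.8 CPM (55.8 and 53.8), and the other 3 classes 104 to 190, where 10 cells held 80.8 to 95.9% of its UMIs. Of cells thinned to 2000 UMIs, 27.5% in the earliest and 68.2% in the last stage had a Slc25a37 UMI, against 64.0% and 98.8% unthinned. UMIs of Slc25a37 per UMI of Tfrc went up with them, from 0.142 to 0.532.

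Fth1 (chr19:9980598-9985098) and Ftl1 (chr7:45457944-45459884) encode the heavy chain of ferritin, which oxidises iron, and the light chain, which helps to lay it down as mineral. Fth1 was the most abundant member in all 9 classes, at 4699 CPM in the earliest stage (4721 and 4679), 5843, 7182 and 8108 in the following ones and 8406 in the last (8433 and 8379). Ftl1 followed it, at 1518 CPM (1505 and 1530), 1775, 2136, 2330 and 2371 (2375 and 2368). Both were higher at every step, though by little at the last one, where the ratio was 1.04 (1.03 to 1.04) for Fth1 and 1.02 (1.00 to 1.03) for Ftl1. Outside the erythroid cells the 2 chains parted. LEPR stromal cells had 2440 CPM of Fth1 (2445 and 2435), below all erythroid stages, but 1679 CPM of Ftl1 (1670 and 1689), between the first stage and the second. In megakaryocyte-like cells Ftl1 was at 2072 CPM and Fth1 at 3058, while fibroblast-like cells had 1642 and 5278. The ratio of Fth1 to Ftl1 UMIs was therefore 1.45 in LEPR stromal and 1.48 in megakaryocyte-like cells. It was 3.10 to 3.54 in the erythroid stages, 3.21 in fibroblast-like and 2.71 in endothelial-like cells. In megakaryocyte-like cells 10 cells held 52.3% of Fth1 and 42.8% of Ftl1 UMIs, and in endothelial-like cells 86.1% and 81.9%. The part of the neutrophil and B cell RNA of megakaryocyte-like cells, given above, in their ratio was not tested. Erythroid RNA in the amount given further on would make 45.4% of the Fth1 in megakaryocyte-like and 63.8% of that in endothelial-like cells. Without the cells rich in it, Fth1 was at 2006 and Ftl1 at 1950 CPM in megakaryocyte-like cells, a ratio of 1.03, and the ratio was 2.34 in endothelial-like, 3.11 in fibroblast-like and 1.43 in LEPR stromal cells. With all cells the ratio was alike in both lanes, at 1.47 and 1.44 in LEPR stromal cells and at 3.55 and 3.54 in the last stage. Ftl1-ps1, a near-identical copy counted on its own, was at 22.0 to 28.9 CPM in the stages and 30.5 in LEPR stromal cells, and how reads were split between it and Ftl1 is uncertain.

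Slc40a1 (chr1:45908068-45926523) encodes ferroportin, the exporter of iron, and it was ordered the other way. LEPR stromal cells had 163 CPM (167 and 159), and the stages 37.2, 38.6, 34.6, 31.7 and 27.6. The stromal level was 4.77-fold above that of erythroid-like cells (4.43 to 5.14), 5.03-fold above fibroblast-like cells (3.42 to 7.71) and 40.3-fold above megakaryocyte-like cells (19.5 to 101), which had 14 UMIs. Erythroid RNA would give megakaryocyte-like cells 6.94 CPM of Slc40a1, above the 4.05 measured, and without the cells rich in it they had 4 UMIs (1.48 CPM) and LEPR stromal cells 166 CPM. Endothelial-like cells, with 11 Slc40a1 UMIs, were at 28.6 CPM (9.93 to 64.4) and cannot be told from the fibroblast-like or the erythroid cells. The share of cells with a UMI went the same way, 23.0% of thinned LEPR stromal cells against 4.95 to 7.80% in the stages. Without thinning the shares were 40.2% and 33.9 to 52.9%, from which no order is read because depth differed.

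Hmox1 (chr8:75093621-75100589), the inducible heme oxygenase that frees iron from heme, was all but missing from erythroid-like cells, where 9 UMIs were counted in 6382 cells. Each stage held 0 to 3 of them over both lanes, under the 6 summed UMIs (3 in the mean of the lanes) that a count of 0 allows. In LEPR stromal cells 288 UMIs gave 26.8 CPM (26.5 and 27.1), a level 617-fold higher (248 to 2085). The size of this fold is loosely set, since the log2 ratio of -9.27 ran from -9.87 to -5.73 over the alternatives, the latter with cells thinned to 2000 UMIs, where 0 UMIs were left in erythroid-like cells and the limit of a count of 0 stood in for them. The erythroid-like level was 0.043 CPM, and stromal RNA in the amounts given further on would make 0.019 or 0.031 of it, depending on the genes it is measured by. Of 12 macrophage markers, 9 had a UMI in LEPR stromal cells and 1 was over 10 CPM, Vcam1 with 1251 of their summed 1260 CPM, while Adgre1 was at 0 and Cd68 at 3.91. Fibroblast-like cells had 17 UMIs (10.4 CPM, 4.63 to 20.1), and the endothelial-like and megakaryocyte-like cells 3 and 4. Ireb2 (chr9:54863789-54912530), which encodes iron regulatory protein 2, lay between 24.4 and 29.6 CPM in the stages. LEPR stromal cells had 54.8 CPM (55.6 and 54.0), 2.02-fold more than erythroid-like cells (1.78 to 2.28), so whether the difference passes 2-fold lies within counting error. Ireb2 in endothelial-like cells, at 57.3 CPM (28.6 to 102), overlapped LEPR stromal cells and 4 of the 5 stages.

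Set against LEPR stromal cells, erythroid-like cells had 4 of the 9 members at least 2-fold higher, Tfrc, Slc25a37, Steap3 and Fth1. Of 13475 genes with enough UMIs to compare, 18.6% were higher by that measure. Slc40a1, Hmox1 and Ireb2 were at least 2-fold lower, as were 46.5% of all genes. Ireb2, at a log2 ratio of -1.01, was at -0.83 with cells thinned to 2000 UMIs and thus no longer past 2-fold. Slc11a2 and Ftl1 lay within 2-fold, though Slc11a2 was past it, at a log2 ratio of 1.03, when each cell's own CPM was averaged. The median log2 ratio was 0.81 over the members and -0.81 over all genes. Both are descriptions, since the members were picked for their role, with earlier results of these data known, and not drawn from the genes.

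**Figure D2:**
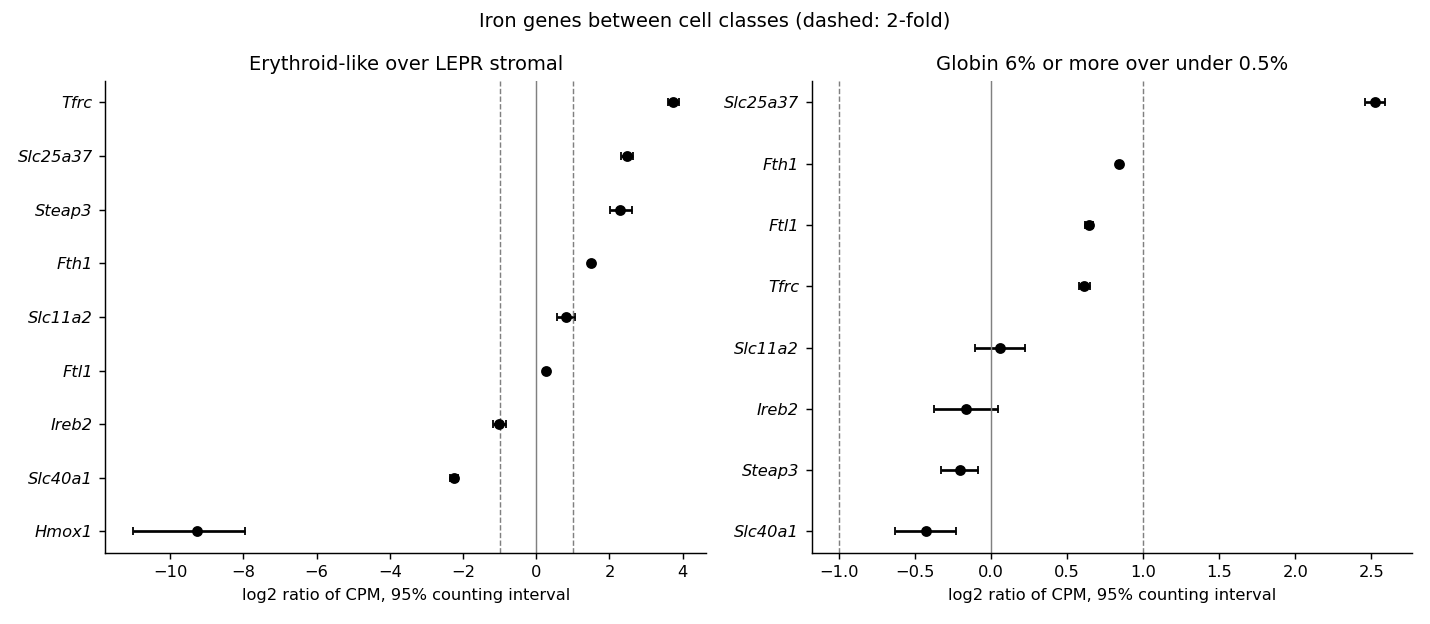
Log2 ratio of CPM for each member, erythroid-like over LEPR stromal cells (left) and the last over the first globin stage (right), with 95% counting intervals; dashed lines mark 2-fold and the solid line no difference. Tfrc lies farthest right on the left side at 3.75, Hmox1 farthest left at -9.27, and on the right side Slc25a37 is past 2-fold at 2.52.

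Between the last and the first globin stage Slc25a37 was the member past 2-fold, 1 of the 8 that could be compared, where 3.91% of 10298 genes were that much higher. None of the 8 fell by 2-fold or more, and 30.0% of all genes did. The count was 4 (Tfrc, Slc25a37, Fth1 and Ftl1) when each cell's own CPM was averaged or cells were thinned to 2000 UMIs. Log2 ratios of the others were 0.84 for Fth1, 0.64 for Ftl1 and 0.61 for Tfrc, then 0.06 for Slc11a2, -0.16 for Ireb2, -0.21 for Steap3 and -0.43 for Slc40a1. The intervals of Slc11a2 and Ireb2 included 0, and Steap3 turned to 0.20 when each cell's own CPM was averaged and to 0.13 when cells were thinned to 2000 UMIs. Slc25a37, Fth1 and Ftl1, 3 of the 9, were higher at each of the 4 steps, as 7.14% of 11631 genes were, and 0 were lower at each step (36.8% of genes). The median gene was at a log2 ratio of -0.53, so a member that keeps its CPM, like Slc11a2, gains on most genes.

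**Figure D3:**
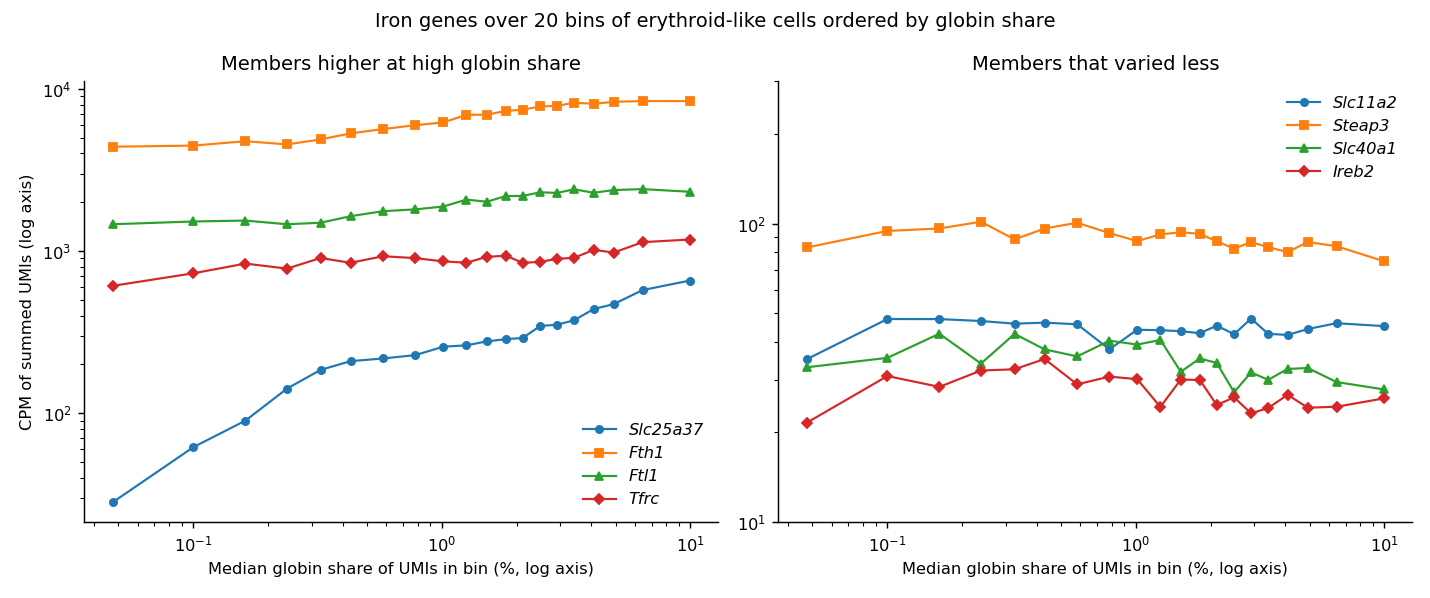
Level of 8 members (CPM, log axis) in 20 bins of erythroid-like cells of near-equal size, ordered by globin share, against the median globin share of the bin (percent, log axis); each point is 1 bin of summed lanes. Slc25a37 rises from 28.3 to 657 CPM, Fth1 from 4402 to 8412, and the members on the right side stay between 21.5 and 102 CPM.

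Erythroid-like clusters differed in the members within a globin stage. Clusters 0 and 3 (1536 and 956 cells) had medians of 5729.5 and 9174.5 UMIs, were led by Gm26917, Lars2 and histone or mitochondrial genes, and cluster 3 had a median of 11.6% mitochondrial UMIs. They made up 53.7% of cells but 14.7% of UMIs in the earliest stage, and 15.7% of cells in the last. In the stage of 1 to 2.5% globin their Fth1 levels were 1910 and 2247 CPM, against 7218 to 7984 in the other 5 clusters. Their Ftl1 levels there were 559 and 792 CPM against 2125 to 2529. Slc25a37 went the other way, at 1001 and 832 CPM against 75.4 to 275. The part of RNA quality in these levels was not tested. Within each of the 7 erythroid-like clusters, Slc25a37 and Fth1 were higher at every step between stages of at least 20 cells. Without clusters 0 and 3 Slc25a37 ran from 60.4 to 580 CPM, a log2 ratio of 3.26, and Fth1 from 5313 to 8671, one of 0.71. Tfrc then went from 824 to 1157 CPM, and Slc40a1 was lower at each step, from 37.7 to 26.9. Averaging each cell's own CPM, which gives these shallow cells more weight, put 4 members past 2-fold between the last and the first stage (Tfrc, Slc25a37, Fth1 and Ftl1) and Slc25a37 at a log2 ratio of 1.65. The same average without both clusters put 1 there, Slc25a37 at 3.54.

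**Figure D4:**
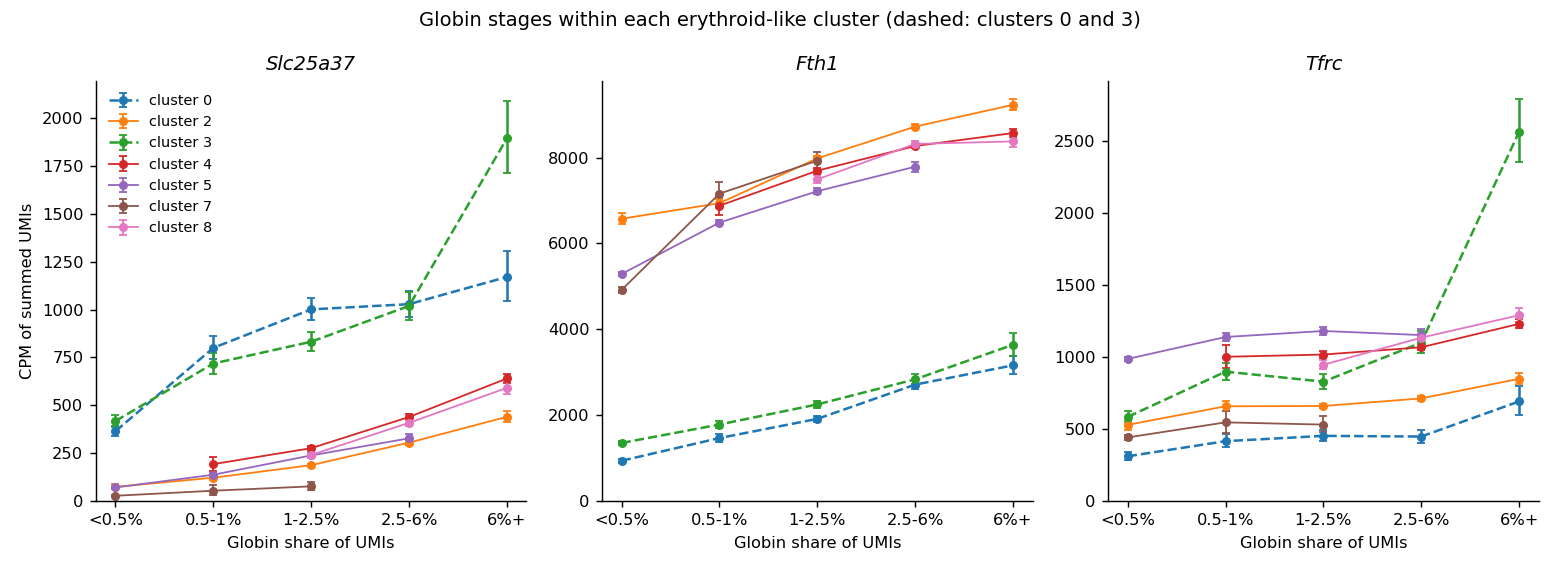
Slc25a37, Fth1 and Tfrc (CPM, linear axes from 0) by globin stage within each of the 7 erythroid-like clusters, for stages with at least 20 cells; lines on points are 95% counting intervals, and dashed lines are clusters 0 and 3. Slc25a37 and Fth1 climb in each cluster, with clusters 0 and 3 highest for Slc25a37 and lowest for Fth1.

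Erythroid RNA was also found in the other classes. The summed level of Klf1, Rhag, Ermap and Car1, chosen after the classes were seen from the erythroid markers that named the clusters, was 8.18% of the erythroid level in LEPR stromal cells, 22.4% in fibroblast-like, 39.2% in endothelial-like and 20.3% in megakaryocyte-like cells. Erythroid RNA in that amount would give 73.8 CPM of Tfrc in LEPR stromal cells, which is no less than the 67.3 measured. For the endothelial-like cells the values are 354 and 304 CPM. In fibroblast-like and megakaryocyte-like cells erythroid RNA would give 78.3% and 70.1% of the Tfrc measured, and 10 cells held 90.3% and 84.6% of its UMIs there. Slc25a37 in LEPR stromal cells was at 54.8 CPM where 24.8 would come with erythroid RNA (39.0 without the cells rich in it), and Fth1 at 2440 where 560 would. Slc40a1 and Hmox1 of LEPR stromal cells, and the Steap3 of fibroblast-like cells, lay far above the 2.80, 0.0036 and 19.8 CPM that erythroid RNA would give. In the opposite sense, Adipoq and Kitl, stromal genes that the LEPR gate did not use, were in erythroid-like cells at 0.0719% of their level in LEPR stromal cells. Stromal RNA in that amount would give 0.12 CPM of Slc40a1 against 34.2 measured, and 0.019 CPM of Hmox1 against 0.043. With Cxcl12 and Lepr added, whose stromal level the gate itself sets, the share was 0.115% and the values 0.19 and 0.031 CPM. Where cells with at least 500 CPM of the 4 erythroid genes were left out, 208 of them LEPR stromal, Tfrc was at 39.2 to 60.01 CPM in the 4 classes, Slc25a37 at 35.0 in fibroblast-like, 28.9 in megakaryocyte-like and 108 in endothelial-like cells, and Fth1 at 2467 in LEPR stromal and 5004 in fibroblast-like cells. Fth1 then went from 4208 to 1926 CPM in endothelial-like and from 3058 to 2006 in megakaryocyte-like cells, and Ftl1 from 1551 to 822 in endothelial-like cells. Erythroid RNA was not all removed by this. The LEPR stromal cells that remained had Klf1 at 11.3, Rhag at 7.54, Ermap at 14.0 and Car1 at 70.7 CPM. The 4 genes summed to 2573 CPM in erythroid-like cells. Car1 was still at 62.5, 54.0 and 31.2 CPM in fibroblast-like, endothelial-like and megakaryocyte-like cells.

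**Figure D5:**
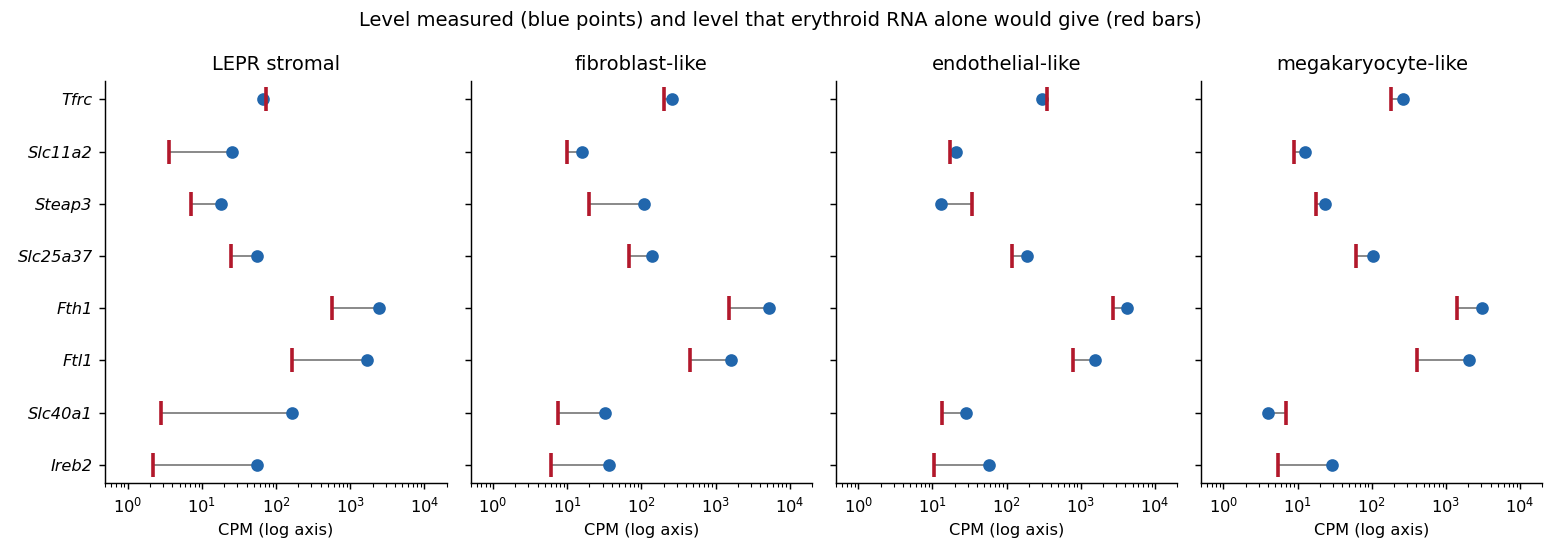
Level of 8 members measured in each non-erythroid class (points, CPM, log axis) and the level that erythroid RNA alone would give there (red bars), from the summed level of 4 erythroid genes in that class. For Tfrc point and bar nearly meet in LEPR stromal cells (67.3 and 73.8 CPM), while for Slc40a1 they lie apart (163 and 2.80).

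LEPR stromal cells are given by cluster as well, and the part of depth in these levels was not tested. The 1273 of them in cluster 1 (median 6165 UMIs over the cluster) had 46.2 CPM of Tfrc, 172 of Slc40a1 and 2570 of Fth1. In cluster 6, with a median of 3073.5 UMIs, 461 gated cells had 156, 130 and 1516 CPM. In cluster 10, with a median of 2523 UMIs and 11 of 14 erythroid markers, 137 gated cells had 136, 96.5 and 3987 CPM. Clusters 6 and 10 stayed unnamed for their low depth, and the part of erythroid RNA in these levels was not tested. Hmox1 had overlapping intervals in these groups, at 27.6 (22.9 to 33.1), 23.3 (14.3 to 35.8) and 28.4 CPM (9.21 to 66.2). Per cell, among cells of at least 2000 UMIs, Fth1 had a median of 1862 CPM and a middle range of 1047 to 3091 in LEPR stromal cells. The first globin stage overlapped it, with a median of 2149 and a range of 810 to 5075, as did the second, with 2180 and 1033 to 6526, and the third, with 6774 and 1872 to 8011. The last had a median of 8264 and a range of 6355 to 9635.

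Of 55 further genes of iron handling, 46 could be compared between erythroid-like and LEPR stromal cells, and 14 were at least 2-fold higher, 19 lower and 13 within, where 18.6% of all genes were higher and 46.5% lower. Exoc6, a part of the complex that recycles the transferrin receptor, was at 57.3 and 4.93 CPM (log2 ratio 3.54). Blvrb, biliverdin reductase B, was at 2068 and 199 CPM. Lowest in erythroid-like cells were Cp, the ferroxidase ceruloplasmin, at 0.82 against 1180 CPM, Hfe, a partner of transferrin receptors, at 0.043 against 55.8, and Bmp6, a ligand that drives hepcidin in liver, at 0.21 against 257. Their log2 ratios of -10.5, -10.3 and -10.3 had overlapping intervals, so their order is not set. Stromal RNA, at 0.0719% of its LEPR stromal level by Adipoq and Kitl, was not taken off these low levels. By role, 6 of 11 genes of mitochondrial iron and clusters were higher and 1 lower, and 3 of 3 genes of export and oxidation were lower, as Slc40a1 was. Of the other uptake genes 4 of 11 were higher and 7 lower, unlike Tfrc, and 2 of 2 genes of reduction were lower, unlike Steap3. Genes of regulation were 2 higher and 4 lower of 8, those of heme transport and breakdown 2 and 2 of 8, and 3 of 3 of storage and release lay within 2-fold. Over the globin stages 34 could be compared, with 5 higher and 7 lower, beside 3.91% and 30.0% of all genes. Erfe, the erythroid hormone that lowers hepcidin, went from 6.80 to 24.8 CPM, Abcb10, which binds mitoferrin-1 and stabilises it, from 111 to 277, and the mitochondrial carrier gene Slc25a39 from 49.8 to 104. Flvcr1, a transporter first described as a heme exporter, went from 12.5 to 2.15 CPM, the mitochondrial transporter gene Abcb8 from 14.9 to 3.63, and Mon1a from 4.39 to 1.89.

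Likeness to the members was taken as Pearson's r of log2(CPM + 1) over the 9 classes among 12804 genes, which all come from 1 sample and differ in depth and in the erythroid RNA they hold. Nearest to Tfrc were Itga4, Ect2 and Klf1 (r of 0.99 each), and nearest to Slc25a37 were Acp5, Ackr1 and Mgst3 (0.98 to 0.99). For the ferritin genes they were Map3k1, Med18 and Sox6 with Fth1 (0.98 to 0.99), and Cd47, Cdc25b and Riok3 with Ftl1 (0.92 to 0.96). Slc40a1 was most like Rbm4b, Arrdc2 and Cdk20 (0.98 to 0.99), and Hmox1 most like Ifi211, Tmem150a and Gm12216 (1.00 each). Slc11a2 had Ssbp3, D1Ertd622e and Primpol (0.97 each), Steap3 had Kbtbd12, Tmem107 and Gm15489 (0.97 each), and Ireb2 had Trim21, Ap4e1 and Tmem241 (0.99 each). Between members, r was 0.93 for Slc25a37 and Fth1, and -0.92 for Tfrc and Hmox1. Hmox1 had 0 to 3 UMIs in each globin stage, 3 in endothelial-like and 4 in megakaryocyte-like cells. Its r values thus rest in part on counts under the limit of a count of 0.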

How the data were processed

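The authors sorted the cells, made 10x 3′ libraries and counted reads with Cell Ranger on mm10, and for each replicate (called a lane here) deposited UMI counts, not normalized, of every gene in every called barcode. The header of the counts names software version 3.0.2. The lanes held 116827845 and 120556381 UMIs. The members and gene lists were chosen with earlier results of these data known. The design had assumed that lanes hold separate cells. Counts were clustered in Seurat 5.3.0 (R 4.3.3, sctransform 0.4.2, 30 components, resolution 0.8), and summed in Python 3.11.15 with scipy 1.17.1. Clusters were named from marker lists by at least 3 markers, each in 10% of cells and at 25% of its highest cluster, and stayed unnamed where their median UMI count was under the overall median (9857) divided by 3 with no marker of the list among their 10 leading genes. Scrublet (scanpy 1.11.5) called doublets, which were kept in the main values. Levels have exact Poisson, ratios exact conditional binomial intervals, on the mean of the lanes. A count of 0 allows up to 3 counts in the mean of the lanes, 6 in their sum. Genes with under 50 UMIs were not compared. The functions were tested on simulated counts. The genes named were the members, up to 3 other iron genes each way per comparison, the 3 genes most like each member, and markers, of which 1 gene is not reported here. Alas2, Ftl1-ps1 and the leading genes of clusters were named after their values were seen. Alternatives covered filters, doublets, lanes, depth, pooling, clustering, gates and the CPM denominator.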

Additional observations from a re-analysis of the deposited data

Results flagged for a closer look

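In data that the comparisons did not use, several members were also well above the limit of a count of 0, but Hmox1, with 6 UMIs in the barcodes left out, was not. The 1483 barcodes left out by the filters, 1482 of them over 20% mitochondrial UMIs, had 333 CPM of Slc25a37 and 1204 CPM of Fth1, so Slc25a37 was near its level in erythroid-like cells (304) and Fth1 was below its level in each class compared. Cluster 11, unnamed because of its low depth (248 cells, median 1639.5 UMIs, median globin share 11.9%), had 3180 CPM of Tfrc and 2611 CPM of Slc25a37, above all 5 globin stages, but 1690 CPM of Fth1. The part of depth and mitochondrial share in these levels was not tested.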

How the results depend on the processing

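No paired analysis was possible because the 2 lanes hold the same cells of 1 group. In the comparison of erythroid-like with LEPR stromal cells, the count of members past 2-fold and the median log2 ratio moved by less than the set limits under all alternatives run. Between the last and the first globin stage the count of higher members was 4 (Tfrc, Slc25a37, Fth1 and Ftl1) and the median log2 ratio 0.65 when each cell's own CPM was averaged, and 4 and 0.70 when cells were thinned to 2000 UMIs, where clusters 0 and 3 weigh by their cells. Averaging cells without those clusters, an alternative chosen after seeing the data, gave 1 and 0.38. No called ratio changed sign, and Ftl1, not called, ran from -0.09 to 0.43 on the log2 scale against LEPR stromal cells. Between the last and the first stage 3 more ratios, none of them called, turned sign under an alternative: Steap3 ran from -0.27 to 0.20, Ireb2 from -0.67 to 0.28 and Slc11a2 from -0.11 to 0.34. Against LEPR stromal cells Ireb2 ran from -1.14 to -0.83 and Slc11a2 from 0.75 to 1.03, so whether they pass 2-fold depends on the setting. Of the log2 ratios of single members, 200 moved by less than counting error and 64 by more. The 200 include alternatives that could not move a ratio. Dropping the minimum of UMIs per gene left the members' counts as they were. Keeping LEPR-gated cells of erythroid-like clusters changed nothing, as there were 0 such cells. Each lane alone gave counts of 4 and 3 members higher and lower against LEPR stromal cells.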
